A study of Homo sapiens with 37 samples.

Results

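The late-passage response of WI-38 cells was set against that of IMR-90 cells by a difference of differences in 1 fit. The log2 change from the group WI-38 Proliferating Control to WI-38 Replicative Exhaustion, minus the change from IMR-90 PDL15 to IMR-90 PDL52, was estimated for each gene. These 4 groups, as the labels name them, hold 8 of the 37 libraries of the series, 2 per group. PDL is the population doubling level, the number of times a culture has doubled. The study sought transcripts shared by cells made senescent in several ways, and repeated passage was among the routes used in both strains. WI-38 and IMR-90 are established fibroblast strains from fetal human lung with a limited life span, and the cells of these 4 groups were untreated. Per the labels, both grew in DMEM with 10% serum, antibiotics, antimycotics and non-essential amino acids. The IMR-90 groups are described as proliferating cells at PDL 15 and replicatively exhausted cells at PDL 52. Growth was not measured in the data used here. In the main fit below, 0 of 35 mitosis and 0 of 34 DNA replication genes were significantly lower at PDL 52 than at PDL 15. The WI-38 groups were proliferating cells at PDL 25 and exhausted cells at PDL 53 to 55, so the spans of doubling differed. The labels do not say that the 2 libraries of a group are separate cultures, so the spread between them could be technical only. A p-value of the main fit reflects this spread pooled per gene over the 4 groups. A call within 1 strain therefore also depends on the spread in the other strain. Each strain stands for 1 donor's cells.

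Fibroblasts that have divided many times lose telomere sequence and stop dividing for good, which is replicative senescence. The arrest is held by the CDK inhibitors p21 (CDKN1A), a target of p53, and p16 (CDKN2A), and it silences genes of DNA replication and mitosis. Senescent fibroblasts are known to lose lamin B1, to secrete cytokines, chemokines and proteases (the senescence-associated secretory phenotype, driven by NF-kB and C/EBP-beta), and at late stages to switch on interferon-stimulated genes, many of which act against viruses. MMP1, an interstitial collagenase, CDKN2A and OAS1, an enzyme that makes the second messenger of RNase L when it meets double-stranded RNA, stand for these 3 programmes.

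Strain and kind of library cannot be told apart. The libraries held 139001848 to 322483830 counts. Protein-coding genes took 88.8% to 91.1% of the counts in WI-38 and 61.1% to 64.8% in IMR-90, and mitochondrial genes 3.21% to 8.71% against 0.159% to 0.234%. The small RNAs 7SL, 7SK, RMRP and RPPH1 took 0.0164% to 0.0823% in WI-38 and 4.20% to 4.83% in IMR-90. A level is given as CPM, counts per 1000000 of the TMM-scaled library total, and a level in WI-38 is not to be compared with one in IMR-90. The 2 exhausted WI-38 libraries stood furthest apart: their chi-square over degrees of freedom was 453, against 26.6 to 81.2 for the other pairs. The coefficient of variation between replicates was 26.9% in WI-38 and 9.26% in IMR-90 when each strain was fitted alone, and 20.7% in the joint fit.

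Most genes called in both strains moved the same way, while 6385 genes had a called difference of responses. Of 31123 genes tested, 2550 (8.19%) responded more positively in WI-38 than in IMR-90 and 3835 (12.3%) more negatively, by edgeR's quasi-likelihood test with a Benjamini-Hochberg adjusted p below 0.05 (from here, called). Within WI-38, 4261 genes (13.7%) rose and 4456 (14.3%) fell. Within IMR-90, 5173 (16.6%) rose and 3822 (12.3%) fell. These counts rest on the pooled spread of the joint fit. With each strain fitted alone, 2593 rose and 2601 fell in WI-38, and 7267 rose and 6703 fell in IMR-90. In the joint fit, the 4242 genes called in both strains were 48.7% of those called in WI-38 and 47.2% of those called in IMR-90. Of them, 3255 moved the same way. Of the rest, 416 (1.34% of the genes tested) rose in WI-38 and fell in IMR-90, and 571 (1.83%) fell in WI-38 and rose in IMR-90, each with a called difference. Across all genes tested the responses had a Pearson r of 0.199, and 0.350 over the 14657 genes with an average log2 CPM of at least 1, a description over genes, which are not independent. The median difference was -0.02 on the log2 scale. Without any 1 of the IMR-90 and WI-38 Proliferating Control libraries the difference counted 1321 to 1528 higher and 2138 to 2602 lower. It counted 5020 and 6971 without exhausted WI-38 replicate 1, and 3554 and 6266 without replicate 2. The counts of list members moved with it: for each list, response and direction, the highest count with 1 library left out was reached without 1 of these exhausted WI-38 libraries, except for p53 targets lower in IMR-90. A range beside a list count is over the 8 libraries left out in turn. Each list count of called differences is to be read beside the shares over all genes, 8.19% higher, 12.3% lower and 20.5% either way. Most list members are protein-coding, and the called share of such genes was larger. With protein-coding genes only in the fit, 2072 differences were higher and 2856 lower of 15910 genes tested. A list whose share is only modestly above that over all genes is thus not set apart by it.

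**Figure D1:**
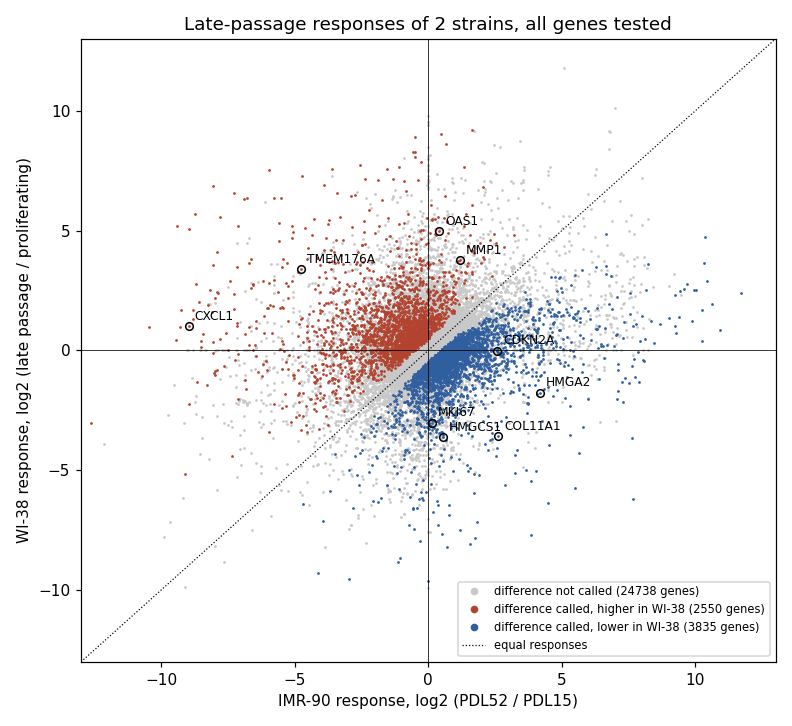
Log2 response of each of 31123 genes to late passage in IMR-90 (horizontal) and WI-38 (vertical), with called differences in red (2550 higher in WI-38) and blue (3835 lower) and the dotted line where responses are equal. MMP1, OAS1 and TMEM176A lie above that line, and CDKN2A, HMGA2 and COL11A1 below it.

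The responses of the 3 marker genes each differed between the strains. MMP1 (ENSG00000196611) stood at 70.5 and 68.9 CPM in proliferating and 1003 and 906 in exhausted WI-38, and at 73.3 and 87.3 in IMR-90 PDL15 and 169 and 196 in PDL52. It rose in both strains without overlap of the groups, by 3.78 ± 0.14 (log2 ± standard error) in WI-38 and 1.18 ± 0.13 in IMR-90, a difference of 2.59 ± 0.18 (edgeR adjusted p = 9.21e-06), or 6.03-fold. WTAPP1 overlaps MMP1 and MMP3 on the opposite strand, and whether counting used strand is not given in the sources used here. CDKN2A likewise overlaps CDKN2B-AS1, and OAS1 and CDKN1A overlap other transcripts. CDKN2A (ENSG00000147889) was at 14.8 and 13.2 and then 12.8 and 15.1 CPM in WI-38, where the groups overlapped, and at 4.08 and 4.12 and then 19.5 and 29.05 in IMR-90, where they did not. Its response was -0.01 ± 0.18 in WI-38 (adjusted p = 0.994) and 2.57 ± 0.20 in IMR-90, and the difference of -2.57 ± 0.26 was called (adjusted p = 0.000109). OAS1 (ENSG00000089127) went from 0.822 and 0.785 to 29.04 and 21.2 CPM in WI-38 and from 0.209 and 0.277 to 0.347 and 0.297 in IMR-90. The WI-38 groups were far apart while both IMR-90 groups stayed low, so that OAS1 changed by 4.96 ± 0.22 in WI-38 and 0.41 ± 0.26 (adjusted p = 0.28) in IMR-90, and the difference was 4.55 ± 0.33 (adjusted p = 1.22e-05). The 3 differences stayed called with the same sign without each library in turn and in each of the other settings tried.

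**Figure D2:**
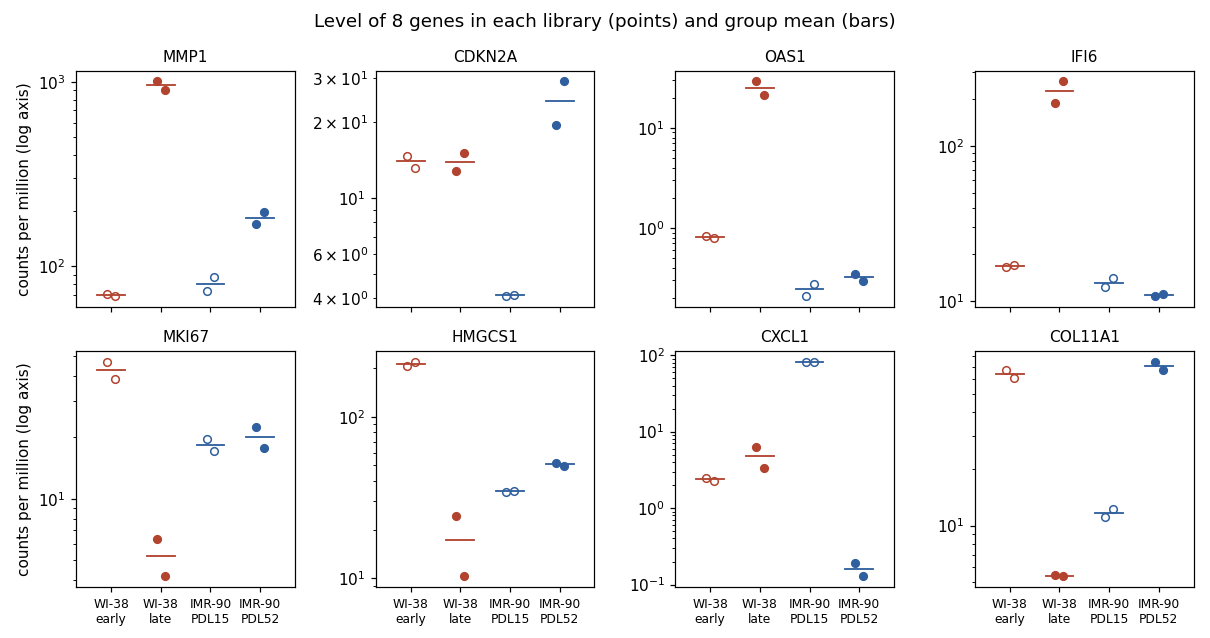
CPM (log axis) of 8 genes in each of the 8 libraries, open points for early and filled for late passage, red for WI-38 and blue for IMR-90, with a bar at each group mean. CDKN2A separates by passage in IMR-90, OAS1 and IFI6 rise in WI-38, CXCL1 falls in IMR-90, and COL11A1 falls in WI-38 and rises in IMR-90.

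Most genes of mitosis fell in exhausted WI-38, while fewer were called in IMR-90. Of the 35 mitosis genes, 31 fell and 0 rose in WI-38 (median -1.94), while 0 fell and 10 rose in IMR-90 (median 0.21). The difference was called lower for 34, with a median of -2.33, where 12.3% of all genes were. MKI67, the proliferation antigen Ki-67, was at 46.7 and 38.3 CPM in proliferating and 6.38 and 4.18 in exhausted WI-38, and at 19.6 and 17.2 and then 22.4 and 17.8 in the IMR-90 groups. It fell without overlap in WI-38 and overlapped in IMR-90, a difference of -3.14 ± 0.29 (adjusted p = 5.93e-05). AURKA, the kinase of the spindle poles, dropped from 107 and 108 to 22.6 and 23.6 CPM in WI-38 and rose from 11.4 and 12.2 to 32.03 and 28.7 in IMR-90, a difference of -3.58 ± 0.16. ANLN, a scaffold of the contractile ring, also moved in opposite directions (-1.88 ± 0.14 and 1.44 ± 0.14). The count of mitosis genes with a lower difference ranged over 29 to 34, and over 30 to 33 for those that fell in WI-38. In IMR-90 those that rose ranged over 4 to 16 and those that fell over 0 to 3, with 3 lower by limma voom (another test of the counts), 2 without exhausted WI-38 replicate 1 and 3 without replicate 2.

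Genes of DNA replication showed the same split, with medians that moved less in WI-38 and more in IMR-90. Of 34, 22 fell and 1 rose in WI-38 (median -0.75), while 12 rose and 0 fell in IMR-90 (median 0.41), and the difference was lower for 26. That count was 15 to 17 without either PDL15 library, PDL52 replicate 1 or either WI-38 Proliferating Control library. MCM10, which helps to start replication forks, fell in WI-38 from 2.26 and 2.19 to 0.406 and 0.274 CPM and rose in IMR-90 from 3.12 and 3.24 to 6.08 and 5.86. Its responses were -2.71 ± 0.22 and 0.91 ± 0.20. TK1, the thymidine kinase of S phase, changed by -2.05 ± 0.16 in WI-38 and 0.21 ± 0.15 (not called) in IMR-90. The count that rose in IMR-90 ranged over 5 to 21. The E2F1 gene, for a transcription factor of the G1 to S step, was an exception chosen after its values were seen: it rose in both, by 1.75 ± 0.31 and 1.73 ± 0.31, with a difference of 0.02 ± 0.42.

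Several mitosis genes share a short promoter element. The cell cycle genes homology region (CHR) is the docking site of the DREAM and MuvB complexes, which repress such genes in arrested cells. Its letters TTTGAA, searched on both strands in the window from 250 bases before to 50 after the start of each RefSeq gene (GRCh38.p14), were in 20 of the 29 mitosis genes with a window (69.0%) and in 15.4% of all 27305 windows. A match is a description of letters, not of binding. DLGAP5, a spindle protein (chr14:55191536-55191835, minus strand), with a difference of -3.45 ± 0.32, and MKI67 (chr10:128126374-128126673, minus strand) are shown as members with large differences, with the matches in capitals:
DLGAP5: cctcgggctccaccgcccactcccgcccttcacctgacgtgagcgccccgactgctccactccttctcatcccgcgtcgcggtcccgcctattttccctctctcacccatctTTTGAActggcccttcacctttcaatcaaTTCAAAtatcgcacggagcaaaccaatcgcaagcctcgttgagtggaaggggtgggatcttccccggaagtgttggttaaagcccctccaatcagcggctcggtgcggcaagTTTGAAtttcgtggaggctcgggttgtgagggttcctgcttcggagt
MKI67: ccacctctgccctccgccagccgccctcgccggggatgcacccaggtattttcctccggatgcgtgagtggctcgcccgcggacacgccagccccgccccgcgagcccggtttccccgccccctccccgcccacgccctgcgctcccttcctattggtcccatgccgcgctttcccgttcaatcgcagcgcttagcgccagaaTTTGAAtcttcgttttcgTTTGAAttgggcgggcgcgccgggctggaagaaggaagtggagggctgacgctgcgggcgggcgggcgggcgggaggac

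The lamina and chromatin list went with the cell cycle genes. Of its 23 genes, 17 fell and 1 rose in WI-38, 3 fell and 6 rose in IMR-90, and the difference was lower for 16 and higher for 0 (median -1.12). In IMR-90 8 fell and 8 rose by voom, as many as without either exhausted WI-38 library (ranges 0 to 8 and 4 to 8). LMNB1, lamin B1, fell from 3.76 and 3.24 to 0.457 and 0.437 CPM in WI-38, and stood at 23.3 and 25.4 and then 20.96 and 15.5 in IMR-90. Its IMR-90 groups did not overlap, but the response of -0.42 ± 0.16 was not called (adjusted p = 0.083). The difference was -2.55 ± 0.24 (adjusted p = 6.64e-05). HMGB2, a chromatin protein lost at the start of senescence, had responses of -1.94 ± 0.17 and -0.36 ± 0.17, the latter not called. HMGA2, a chromatin protein of fetal and dividing cells, fell from 167 and 180.0 to 71.8 and 30.9 CPM in WI-38 and rose from 8.87 and 10.95 to 181 and 175 in IMR-90. This was the most negative difference of the list, -5.93 ± 0.45, with no overlap in either strain.

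Histone genes split within the list. Of 43 replication-dependent histone genes listed, 18 were matched and tested. Their transcripts end without a poly(A) tail. In WI-38, 8 rose and 5 fell, and in IMR-90 1 rose and 6 fell. The count that rose in WI-38 ranged over 4 to 9 and that lower in IMR-90 over 0 to 10. The linker histone genes H1-5 (-3.56 ± 0.20) and H1-3 (-3.10 ± 0.32) fell in WI-38, while H1-2 (1.41 ± 0.22) and H4C8 (1.93 ± 0.14) rose there. H4C8 was at 18.6 and 17.1 and then 71.95 and 64.1 CPM in WI-38 and at 42.02 and 52.9 and then 35.4 and 32.3 in IMR-90, so the groups separated in opposite directions (difference 2.42 ± 0.19). With the group WI-38 IR-, another set of control cells at PDL 25, in place of WI-38 Proliferating Control, the list's count of higher and lower differences turned from 6 and 4 to 2 and 11, and the difference of H1-2 was no longer called (0.58).

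CDK inhibitors were mixed in both strains, and more p53 targets rose in IMR-90 than in WI-38. CDKN1A was at 1636 and 1559 CPM in proliferating and 1587 and 2319.8 in exhausted WI-38, which overlapped, and at 201 and 191 and then 608 and 454 in IMR-90, which did not. The responses were 0.29 ± 0.18 (not called) and 1.44 ± 0.19, a difference of -1.15 ± 0.26 (adjusted p = 0.0119). That call was lost without IMR-90 PDL15 replicate 2 (-1.08, adjusted p = 0.0703) or WI-38 Proliferating Control replicate 1 (-1.12, adjusted p = 0.0523). CDKN2B, p15, fell from 48.6 and 51.6 to 39.5 and 21.8 in WI-38 and rose from 7.79 and 7.92 to 13.8 and 14.9 in IMR-90, a difference of -1.58 ± 0.32, which was -0.33 (adjusted p = 0.488) with the control group WI-38 IR-. Among the 7 CDK inhibitor genes, the difference was lower for 4 and higher for 0, and lower for 2 without IMR-90 PDL15 replicate 2 or WI-38 Proliferating Control replicate 1. Of 25 p53 targets, 3 rose and 7 fell in WI-38, 13 rose and 1 fell in IMR-90, and the difference was lower for 16 and higher for 1 (median -0.86). In WI-38 the count that rose ranged over 1 to 9, with 9 without exhausted replicate 1, and that which fell over 3 to 10. FAS, a death receptor, went from 57.2 and 60.3 to 59.2 and 46.7 CPM in WI-38 and from 14.8 and 13.4 to 50.7 and 44.1 in IMR-90. Only the IMR-90 groups separated, and the difference was -1.90 ± 0.20 (adjusted p = 0.000116). FAS shares exon sequence with ACTA2 on the opposite strand. MDM2, which degrades p53, and ZMAT3, a p53-induced RNA-binding protein, had differences of -0.92 ± 0.18 and -1.49 ± 0.17. PLK2, a kinase, was the 1 p53 target with a higher difference (2.52 ± 0.15), falling from 858 and 794 to 106 and 115 CPM in IMR-90. GDF15, a stress cytokine, had a difference of 1.16 ± 0.39 that was not called (adjusted p = 0.063) by edgeR in the main fit. By DESeq2 it was 1.18 (adjusted p = 0.0136). The edgeR fits with no filter on low counts, 37 libraries, protein-coding genes only, a replicate block or WI-38 IR- as the control called it. So did those without IMR-90 PDL52 replicate 1 (1.76), WI-38 Replicative Exhaustion replicate 1 (1.35) or replicate 2 (0.92).

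The p53 targets depended on which proliferating WI-38 cells were used. With WI-38 IR- as the early group, 10 p53 targets rose and 4 fell in WI-38, and the difference was lower for 8 and higher for 4 (median -0.33). MDM2 then rose in WI-38 by 1.03 with a difference of 0.13 (adjusted p = 0.632), and ZMAT3 by 1.37 with a difference of 0.04 (adjusted p = 0.905). With the group WI-38 Dox- Repeat, a further control at PDL 25 that was tried after seeing this, the difference was lower for 11 and higher for 1. The mitosis median went from -2.33 to -4.71 with WI-38 IR- and -2.04 with WI-38 Dox- Repeat. Cholesterol synthesis, described next, had -2.46, -2.50 and -2.44 with the 3 control groups, each with 23 genes lower.

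**Figure D3:**
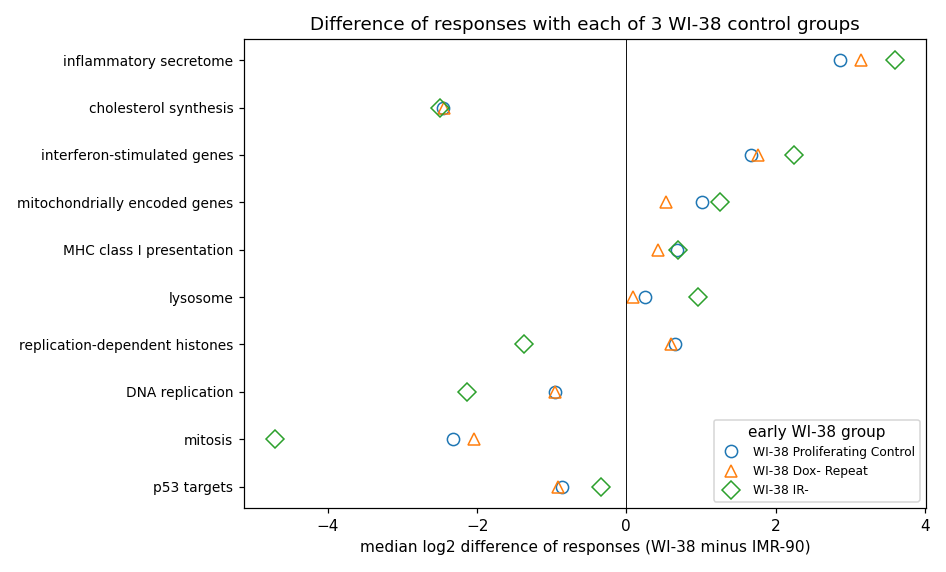
Median log2 difference of responses for 10 gene lists with each of 3 WI-38 control groups at PDL 25 as the early WI-38 cells. Cholesterol synthesis, interferon-stimulated and inflammatory genes keep their side with each control, while the replication-dependent histones change sign with WI-38 IR-.

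Cholesterol synthesis genes fell in WI-38 and in part rose in IMR-90. The 24 genes are the enzymes from acetyl-CoA to cholesterol with the LDL receptor and their regulators, which SREBP-2 switches on when sterols are low. In WI-38, 23 fell and 0 rose (median -1.62), in IMR-90 13 rose and 0 fell (median 0.87), and the difference was lower for 23 (22 to 24 without 1 library). The count that rose in IMR-90 ranged over 8 to 20. The exception was PMVK, phosphomevalonate kinase, at -0.07 ± 0.32, named after its value was seen. HMGCS1, which makes HMG-CoA, fell from 204 and 218 CPM to 24.2 and 10.3 in WI-38 and stood at 34.4 and 34.9 and then 51.99 and 49.8 in IMR-90. The groups of each strain did not overlap, and the responses were -3.61 ± 0.32 and 0.56 ± 0.29 (adjusted p = 0.192), a difference of -4.17 ± 0.43. FDPS, which makes farnesyl diphosphate, fell from 616 and 609 to 229 and 178 and rose from 41.9 and 46.2 to 88.3 and 86.6. MVD, the enzyme that decarboxylates mevalonate diphosphate, moved by -1.64 ± 0.12 and 0.91 ± 0.11. In exhausted WI-38 replicate 2 the values of HMGCS1 and FDPS were below those of replicate 1. The median difference was -2.88 without replicate 1 and -2.25 without replicate 2. The letters TCACNCCAC of a sterol response element were in 1 of the 17 genes with a promoter window (5.88%) and in 1.15% of all windows.

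Most interferon-stimulated genes rose in WI-38, and more fell than rose in IMR-90. Of 44 genes, 37 rose and 1 fell in WI-38 (median 1.38), 6 rose and 16 fell in IMR-90 (median -0.21), and the difference was higher for 32 and lower for 1, where 8.19% of all genes were higher. IFI6, a mitochondrial protein that delays cell death, was at 16.6 and 17.1 and then 189.6 and 261 CPM in the WI-38 groups and at 12.3 and 14.04 and then 10.8 and 11.1 in the IMR-90 groups. It rose in WI-38 (3.74 ± 0.17) with no called change in IMR-90 (-0.27 ± 0.15), and the difference was 4.01 ± 0.22 (adjusted p = 2.56e-06). IFITM1, which keeps viruses from fusing with membranes, rose in WI-38 from 11.8 and 11.2 to 37.2 and 41.8 and fell in IMR-90 from 41.01 and 42.1 to 11.7 and 13.1, a difference of 3.52 ± 0.17. IFITM1 shares 35.3% of its exon stretches of 31 bases with other genes, so its count is uncertain. TRIM22, an antiviral ubiquitin ligase, was the 1 gene with a lower difference (-1.44 ± 0.16), rising from 90.9 and 95.5 to 121 and 119 CPM in WI-38 and from 23.7 and 25.5 to 92.2 and 79.8 in IMR-90. ISG15, a ubiquitin-like protein, rose in both (2.41 ± 0.15 and 0.96 ± 0.14). The count of higher differences was 26 to 36 without 1 library, and 24 with WI-38 Dox- Repeat as the control. In IMR-90 the counts ranged over 4 to 12 higher and 10 to 20 lower. Without exhausted WI-38 replicate 1, 4 differences were lower.

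The interferon-stimulated response element binds ISGF3, a transcription factor complex that interferon activates. Its core, TTTC and a further TTTC with any 2 bases between, on either strand, was in 21 of the 34 genes with a promoter window (61.8%) and in 3.65% of all 27305 windows. OAS1 had no match in its window. The 4 genes with a match and the largest differences are shown, with matches in capitals, overlapping where they share letters: BST2, which tethers virus particles to the cell (chr19:17405581-17405880, minus strand, difference 4.87 ± 0.57), IFI44L (chr1:78620198-78620497, plus strand, 4.23 ± 0.61), IFI6 (chr1:27672143-27672442, minus strand) and IFITM1 (chr11:313790-314089, plus strand).
BST2: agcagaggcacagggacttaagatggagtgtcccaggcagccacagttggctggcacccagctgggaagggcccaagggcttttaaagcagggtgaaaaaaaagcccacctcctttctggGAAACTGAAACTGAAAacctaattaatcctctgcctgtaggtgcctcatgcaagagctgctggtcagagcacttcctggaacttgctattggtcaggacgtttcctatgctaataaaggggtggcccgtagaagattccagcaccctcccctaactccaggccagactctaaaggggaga
IFI44L: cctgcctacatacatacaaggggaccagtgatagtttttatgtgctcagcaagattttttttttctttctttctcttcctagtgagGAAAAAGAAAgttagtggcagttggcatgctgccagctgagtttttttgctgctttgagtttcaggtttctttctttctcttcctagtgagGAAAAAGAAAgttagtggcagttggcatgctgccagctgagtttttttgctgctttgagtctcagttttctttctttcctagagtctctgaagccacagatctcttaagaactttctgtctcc
IFI6: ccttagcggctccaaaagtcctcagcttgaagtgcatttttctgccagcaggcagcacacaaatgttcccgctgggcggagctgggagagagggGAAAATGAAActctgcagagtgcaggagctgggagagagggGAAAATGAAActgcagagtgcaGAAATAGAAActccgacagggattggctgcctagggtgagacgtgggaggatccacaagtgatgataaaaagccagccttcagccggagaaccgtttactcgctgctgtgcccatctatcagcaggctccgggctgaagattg
IFITM1: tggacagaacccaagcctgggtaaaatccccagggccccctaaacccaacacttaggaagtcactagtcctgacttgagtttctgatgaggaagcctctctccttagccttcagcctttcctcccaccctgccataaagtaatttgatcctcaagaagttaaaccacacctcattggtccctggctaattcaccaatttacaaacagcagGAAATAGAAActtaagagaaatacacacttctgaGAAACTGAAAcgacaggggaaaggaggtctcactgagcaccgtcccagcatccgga

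Sensors of nucleic acid were mixed, while genes of antigen presentation that changed in WI-38 rose. Of 15 sensing genes tested out of 18, 7 rose and 1 fell in WI-38, 3 rose and 4 fell in IMR-90, and the difference was higher for 5 and lower for 2. Without 1 library, 3 to 8 rose in WI-38 and the difference was higher for 3 to 8 and lower for 0 to 4. TLR3, an endosomal receptor for double-stranded RNA, rose from 3.28 and 3.09 to 11.4 and 7.16 CPM in WI-38 and fell from 1.67 and 1.76 to 0.479 and 0.714 in IMR-90 (difference 3.07 ± 0.36). DHX58, the RIG-I-like protein LGP2, moved the same ways (0.73 ± 0.17 and -1.57 ± 0.19). CGAS, the sensor of cytosolic DNA, and RNASEH2A, a subunit that clears RNA from DNA, had lower differences (-1.22 ± 0.27 and -1.18 ± 0.24). The call of CGAS was lost without either PDL15 library (-1.22 and -1.21) or without WI-38 Proliferating Control replicate 1 (-1.10) or with WI-38 Dox- Repeat as the control (-1.09), and that of RNASEH2A, 45.6% of whose exon stretches of 31 bases are shared with other genes, without PDL15 replicate 1 (-1.10). The interferon gene IFNB1 had at most 0.059 CPM in any library. Of 15 MHC class I presentation genes, 12 rose in WI-38 and 4 in IMR-90, and the difference was higher for 7 and lower for 0 (median 0.68). PSMB9, a subunit of the immunoproteasome, rose from 7.27 and 7.91 to 14.3 and 20.96 in WI-38 and stood at 4.93 and 5.08 and then 2.45 and 3.80 in IMR-90, a difference of 1.90 ± 0.32. PSMB8, another immunoproteasome subunit that shares exon sequence with PSMB9, rose in WI-38 (0.52 ± 0.13) and fell in IMR-90 (-0.44 ± 0.13). Neither these responses nor the difference of PSMB8 (0.96 ± 0.19) was called with WI-38 IR- or WI-38 Dox- Repeat as the control (differences of 0.58 and 0.63). The count that rose in WI-38 was 8 with WI-38 IR-, 6 with WI-38 Dox- Repeat and 9 to 14 without 1 library. The count of 7 higher differences was 3 or 4 without either PDL15 library, PDL52 replicate 1 or either WI-38 Proliferating Control library, 11 without exhausted WI-38 replicate 1, and 1 with WI-38 Dox- Repeat.

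Most inflammatory secretome genes fell in IMR-90, and those in WI-38 depended on the control group. Of 31 genes tested out of 34, 9 rose and 9 fell in WI-38 (median 0.14), while 22 fell and 2 rose in IMR-90 (median -3.28), and the difference was higher for 20 and lower for 2 (median 2.86). With WI-38 IR- as the control, 15 rose and 4 fell in WI-38 (median 1.77), and with WI-38 Dox- Repeat 8 and 10 (median 0.25). Without 1 library 4 to 10 rose and 7 to 12 fell there, and the difference was higher for 16 to 25. CXCL1 (ENSG00000163739), a neutrophil chemokine, was at 81.7 and 80.2 CPM in IMR-90 PDL15 and 0.191 and 0.128 at PDL52, and at 2.49 and 2.26 and then 6.28 and 3.31 in the WI-38 groups. The groups separated in both strains, downward in IMR-90 (-8.97 ± 0.37) and upward in WI-38 (1.01 ± 0.25), a difference of 9.98 ± 0.44 (adjusted p = 9.56e-07). CXCL8, interleukin 8, fell from 140.0 and 125 to 2.38 and 1.17 in IMR-90, while the WI-38 values of 1.14 and 1.38 and then 1.07 and 0.142 were low in both groups. Its WI-38 response was -1.08 ± 0.63 (not called), and 2.80, called, with WI-38 IR- as the control. IL6 rose from 16.4 and 14.9 to 32.4 and 24.1 CPM in WI-38 and fell from 3.95 and 3.04 to 1.75 and 2.30 in IMR-90, a difference of 1.64 ± 0.28. IL1B, an upstream cytokine of this secretome, fell in IMR-90 from 4.57 and 4.24 to 0.156 and 0.0404 and rose in WI-38 from 0.131 and 0.103 to 0.221 and 0.585, a difference of 7.23 ± 0.78 at levels under 1 CPM in each WI-38 library. PTGS2, cyclooxygenase 2, fell from 113 and 92.7 to 2.14 and 2.48 in IMR-90, with 7.26 and 7.77 and then 8.49 and 11.2 in WI-38. IL32 went the other way: it fell from 4.38 and 4.59 to 0.988 and 1.02 CPM in WI-38 and was at 1.47 and 1.95 and then 2.03 and 2.25 in IMR-90, a difference of -2.49 ± 0.28. IL11, a cytokine of fibroblast activation, rose in IMR-90 from 21.7 and 19.9 to 55.6 and 44.6 and was under 1 CPM in WI-38, and its difference of -1.20 ± 0.32 was not called without any 1 of 5 libraries, both IMR-90 PDL15 replicates, PDL52 replicate 1 and both WI-38 Proliferating Control replicates (-1.07 to -1.29, adjusted p = 0.0676 to 0.114).

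Some chemokine genes that fell in IMR-90 share an NF-kB motif. The letters GGGA and TTTCC with any 1 base between, on either strand, were in 9 of the 29 secretome genes with a promoter window (31.03%) and in 0.579% of all windows. CXCL1 (chr4:73869143-73869442, plus strand), CXCL6 (chr4:73836428-73836727, plus strand, difference 9.87 ± 0.48) and CXCL3 (chr4:74038640-74038939, minus strand, 9.10 ± 0.44) had the largest differences among them, and are shown with the match in capitals.
CXCL1: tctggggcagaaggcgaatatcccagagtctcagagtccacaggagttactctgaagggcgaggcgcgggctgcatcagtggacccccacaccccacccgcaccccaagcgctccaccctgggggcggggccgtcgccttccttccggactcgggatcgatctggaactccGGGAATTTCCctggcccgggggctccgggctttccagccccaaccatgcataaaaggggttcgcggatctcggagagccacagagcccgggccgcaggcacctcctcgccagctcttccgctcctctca
CXCL6: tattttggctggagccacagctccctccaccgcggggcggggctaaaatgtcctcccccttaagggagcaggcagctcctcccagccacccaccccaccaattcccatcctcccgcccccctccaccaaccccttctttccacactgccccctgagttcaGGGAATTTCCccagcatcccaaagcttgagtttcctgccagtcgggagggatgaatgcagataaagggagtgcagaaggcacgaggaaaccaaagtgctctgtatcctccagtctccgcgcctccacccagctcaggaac
CXCL3: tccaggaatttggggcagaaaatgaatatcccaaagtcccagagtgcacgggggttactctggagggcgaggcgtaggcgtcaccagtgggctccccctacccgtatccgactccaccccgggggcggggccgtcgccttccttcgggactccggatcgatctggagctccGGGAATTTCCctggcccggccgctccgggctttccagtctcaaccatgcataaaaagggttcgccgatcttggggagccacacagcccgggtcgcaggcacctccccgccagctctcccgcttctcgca
CXCL6 was at 22.6 and 22.4 CPM in IMR-90 PDL15 and 0.012 and 0.0539 at PDL52, and CXCL3 at 11.5 and 10.8 and then 0.0239 and 0.0404, with no overlap, while each stayed under 1 CPM in WI-38. CXCL8, PTGS2 and IL1B, which also fell in IMR-90, had no match, while IL32, with a lower difference, had 1.

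**Figure D4:**
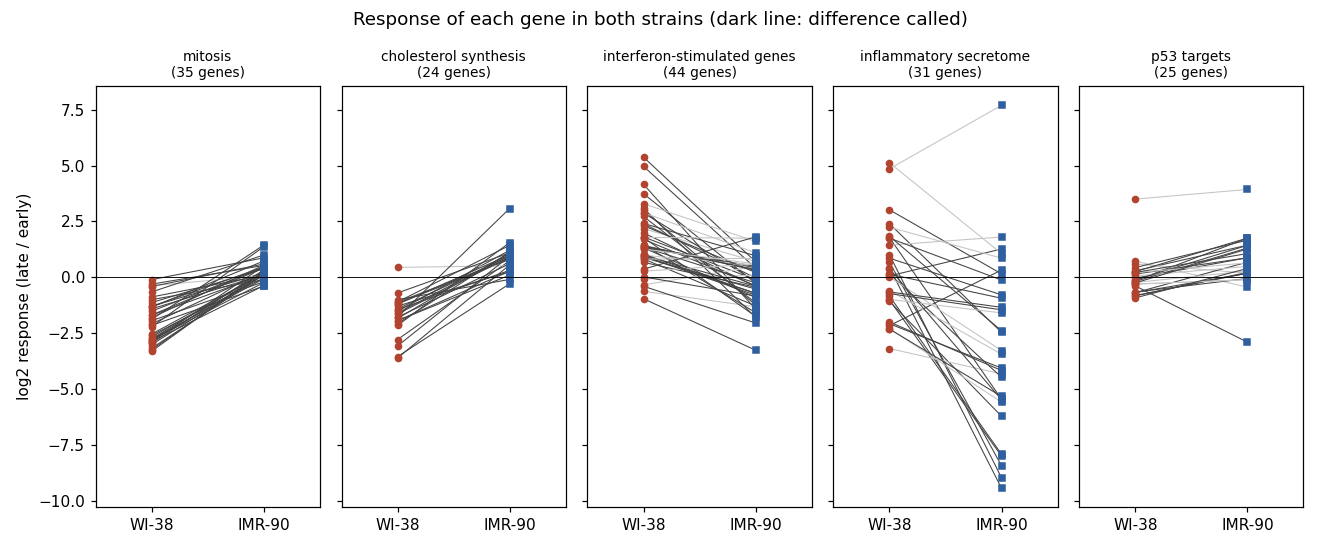
Log2 response of each gene of 5 lists in WI-38 (red circles) and IMR-90 (blue squares), joined by a line that is dark where the difference was called. The lines of the 35 mitosis and 24 cholesterol genes run upward from WI-38 to IMR-90, and most of those of the interferon-stimulated and inflammatory genes run downward.

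Among matrix proteases, MMP1 rose in both strains, while MMP3 rose in WI-38 with no called change in IMR-90. Of 19 metalloproteases and inhibitors tested out of 22, 6 rose in WI-38 and 7 in IMR-90, and the difference was higher for 4 and lower for 4. Without 1 library these were 4 to 9 and 4 to 8 that rose, and differences higher for 2 to 5 and lower for 3 to 7. In WI-38 10 rose with WI-38 IR- as the control. MMP3, stromelysin 1, rose from 4.37 and 5.02 to 177 and 242 CPM in WI-38 and was at 29.6 and 33.9 and then 32.3 and 42.5 in IMR-90, where the groups overlapped, a difference of 5.24 ± 0.27 (adjusted p = 1.62e-06). TIMP1, an inhibitor of these enzymes, rose in IMR-90 from 76.1 and 70.3 to 256 and 381 and was at 656 and 568 and then 678 and 893 in WI-38, where the response of 0.36 ± 0.19 was not called, a difference of -1.76 ± 0.27. RECK, a membrane-bound inhibitor, rose in both, by 0.79 ± 0.10 and 1.81 ± 0.11, and its difference of -1.02 ± 0.15 was not called with WI-38 Dox- Repeat as the control.

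Of 9 genes of the plasminogen system, 5 rose and 3 fell in WI-38, 7 rose and 1 fell in IMR-90, and the difference was higher for 2 and lower for 4. The activators PLAU (1.52 ± 0.14 and 0.62 ± 0.14) and PLAT (2.11 ± 0.17 and 1.07 ± 0.16) rose more in WI-38, with differences of 0.90 ± 0.19 and 1.04 ± 0.23. These 2 differences missed the threshold without any 1 of 3 libraries: IMR-90 PDL15 replicate 1 (PLAU 0.83, PLAT 0.99), IMR-90 PDL52 replicate 1 (0.79 and 0.86) or a WI-38 Proliferating Control library (0.89 without replicate 1 for PLAU, 0.86 without replicate 2 for PLAT), with adjusted p of 0.0509 to 0.0626. Both also missed it with 18 libraries in the fit (0.88 and 1.01), and PLAU with WI-38 Dox- Repeat as the control (0.83). Of 13 genes of the IGF axis, the difference was higher for 3 and lower for 4. IGFBP7, which binds IGFs and is secreted by senescent cells, rose in both strains, from 312 and 282 to 1030.2 and 902 CPM in WI-38 and from 172 and 195 to 1565 and 1885 in IMR-90, a difference of -1.53 ± 0.19. PAPPA, a protease that frees IGF from its binding proteins, fell in IMR-90 from 659 and 567 to 129 and 115 and was at 125 and 101 and then 149.7 and 129.8 in WI-38 (difference 2.64 ± 0.20). IGF2, a fetal growth factor, rose in both, from 0.268 and 0.226 to 0.704 and 0.499 in WI-38 and from 1.55 and 1.45 to 27.3 and 25.98 in IMR-90 (difference -2.88 ± 0.28), with 73.6% of its exon stretches shared. IGF1R, the receptor, fell in IMR-90 (-0.68 ± 0.12) with 0.18 ± 0.12 in WI-38, and its difference of 0.86 ± 0.17 was not called with WI-38 Dox- Repeat as the control (0.73).

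Collagen and other matrix genes were mixed, and some moved in opposite directions. Of 23 collagen genes, 1 rose in WI-38 and fell in IMR-90, and 3 did the reverse. Of 34 matrix glycoproteins and crosslinkers, 2 did the first and 2 the reverse. Over all genes tested, 1.34% did the first and 1.83% the reverse. Of 23 collagen genes, 11 fell in WI-38 and 10 in IMR-90, and the difference was higher for 5 and lower for 5 (median -0.01). Without 1 library the difference was higher for 4 to 9 and lower for 4 to 7, and 6 to 12 fell in IMR-90. COL11A1 (ENSG00000060718), a minor fibrillar collagen, fell from 67.3 and 61.3 to 5.42 and 5.36 CPM in WI-38 and rose from 11.1 and 12.2 to 74.4 and 67.3 in IMR-90. The groups of both strains stood far apart and in reverse order, with a difference of -6.18 ± 0.18 (adjusted p = 2.29e-07). COL3A1, a major collagen of lung, fell in IMR-90 from 6759 and 6439 to 659 and 939 and was 258 and 227 and then 219 and 179 in WI-38, a difference of 2.76 ± 0.24. COL14A1, which coats collagen fibrils, fell in both (-2.03 ± 0.23 and -7.11 ± 0.29), and COL12A1 moved in opposite directions (-1.63 ± 0.12 and 0.48 ± 0.12). With WI-38 IR- as the control COL14A1 rose in WI-38 by 0.95. Of 34 matrix glycoproteins and crosslinkers, the difference was higher for 5 and lower for 14. These were 8 and 18 with WI-38 IR- as the control. THBS1, thrombospondin 1, which activates latent TGF-beta, fell in WI-38 from 1068 and 1029 to 555 and 695 CPM and rose in IMR-90 from 693 and 662 to 5259 and 4848 (difference -3.64 ± 0.18). TNC, tenascin C of wounds, did the reverse (1.31 ± 0.17 and -2.45 ± 0.18, difference 3.76 ± 0.24). FBLN2, fibulin 2, fell in WI-38 from 5.12 and 4.66 to 0.793 and 1.00 and was at 10.6 and 11.4 and then 14.1 and 13.9 in IMR-90 (difference -2.79 ± 0.22).

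Most contractile genes rose in IMR-90. Of 15 genes of smooth muscle contraction and myofibroblasts, 10 rose and 4 fell in IMR-90, 2 rose and 6 fell in WI-38, and the difference was lower for 10 and higher for 3 (median -1.27). The count that fell in WI-38 ranged over 3 to 9, and was 10 with WI-38 IR- as the control. TPM1, a tropomyosin, rose from 407 and 445 to 1246 and 1290.0 CPM in IMR-90 and fell from 1516 and 1449.7 to 972 and 934 in WI-38 (difference -2.21 ± 0.15). CALD1, caldesmon, differed by -1.61 ± 0.17. MYH11, smooth muscle myosin, and MYOCD, the coactivator that switches on smooth muscle genes, went against the list: they fell in IMR-90, MYOCD from 113 and 99.3 to 9.13 and 8.69 CPM, and had differences of 3.28 ± 0.27 and 3.51 ± 0.24.

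Ligands and antagonists of the TGF-beta and WNT families were split. Of 25 TGF-beta family genes, the difference was higher for 8 and lower for 7. The count of lower differences was 11 without either exhausted WI-38 library. BMP5, a bone morphogenetic protein, fell from 42.04 and 45.6 to 0.0359 and 0.108 CPM in IMR-90 and was under 1 CPM in each WI-38 library (difference 10.25 ± 0.65). NOG, noggin, which traps such ligands, rose from 0.455 and 0.251 to 16.1 and 10.6 in IMR-90 and was at 1.66 and 1.55 and then 1.06 and 1.04 in WI-38 (difference -5.85 ± 0.40). BAMBI, a decoy receptor, rose in WI-38 from 16.01 and 13.8 to 52.8 and 52.4 and fell in IMR-90 from 47.3 and 51.9 to 24.8 and 20.2 (difference 2.96 ± 0.19). LTBP2, a matrix protein related to the binders of latent TGF-beta, rose in IMR-90 (2.03 ± 0.14) with 0.16 ± 0.13 in WI-38. Of 17 WNT ligands and antagonists tested out of 22, the difference was higher for 4 and lower for 8. SFRP1, a secreted WNT antagonist, rose from 14.6 and 12.7 to 410.0 and 359 CPM in IMR-90 and fell from 2451 and 2271 to 1895 and 1789.7 in WI-38, a difference of -5.18 ± 0.18. The antagonist DKK2 rose in IMR-90 by 4.09 ± 0.23 and had 0.13 ± 0.17 in WI-38. The ligand WNT2B (0.81 ± 0.13 and -0.58 ± 0.13) and NKD2, an inhibitor of WNT signal transduction (4.17 ± 0.76 and -3.90 ± 0.65), rose in WI-38 and fell in IMR-90. NKD2 was at 0.0551 and 0.0411 and then 0.369 and 1.41 CPM in WI-38, so its exhausted replicates differed widely.

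Stress and metabolic lists were split. Of 28 lysosome genes, 14 rose in WI-38 and 6 in IMR-90, and the difference was higher for 8 and lower for 1 (median 0.26). It was higher for 18 with WI-38 IR- as the control, for 4 with WI-38 Dox- Repeat, and for 5 without any 1 of PDL15 replicate 2, the PDL52 libraries and the WI-38 Proliferating Control libraries. GLB1, the beta-galactosidase stained in senescent cells, rose in WI-38 by 0.35 ± 0.11, and its difference of 0.17 ± 0.15 was not called (adjusted p = 0.5), but was with WI-38 IR- (0.54). CTSK, cathepsin K, fell further in IMR-90, from 49.6 and 55.97 to 7.37 and 6.19 CPM against 689 and 669 and then 514 and 423 in WI-38, a difference of 2.42 ± 0.19, and rose in WI-38 by 1.62 with WI-38 IR- as the control. CTSS, cathepsin S, fell in IMR-90 (-2.28 ± 0.24) with 0.46 ± 0.21 in WI-38, and LIPA, the lysosomal acid lipase, had a lower difference (-1.49 ± 0.29), which was -0.15 (adjusted p = 0.749) with that control and -1.10 (adjusted p = 0.0523) with WI-38 Dox- Repeat. The count of lower lysosome differences was 7 without exhausted WI-38 replicate 1 and 5 without replicate 2. Those that rose ranged over 5 to 16 in WI-38 and 3 to 11 in IMR-90, with 23 in WI-38 when WI-38 IR- was the control. Of 20 genes of ATF4 and the unfolded protein response, the difference was lower for 9 and higher for 3 (6 higher with WI-38 IR- as the control). HSPA5, the chaperone BiP, fell in WI-38 from 2023 and 1934 to 1089 and 948 CPM and rose in IMR-90 from 142 and 139 to 208 and 213 (difference -1.54 ± 0.15). CHAC1, which breaks down glutathione, rose in IMR-90 from 4.09 and 4.49 to 17.02 and 16.3 and overlapped in WI-38 (difference -2.14 ± 0.20). CEBPB, a driver of the secretome, fell in IMR-90 from 125 and 125 to 39.2 and 45.5 and stood at 15.9 and 14.6 and then 14.6 and 12.8 in WI-38 (difference 1.41 ± 0.17). SLC7A11, the cystine importer, had a difference of 0.64 ± 0.14 whose call was lost without any 1 of 4 libraries, PDL15 replicate 1, both PDL52 replicates and WI-38 Proliferating Control replicate 1 (0.57 to 0.64, adjusted p = 0.0521 to 0.0718). Of 23 genes of glycolysis and hypoxia, the difference was higher for 6 and lower for 3. It was, with WI-38 IR- as the control, higher for 6 and lower for 8, so the balance turned, and the median WI-38 response went from 0.25 to -0.07. NDRG1, induced by low oxygen, moved in opposite directions (0.96 ± 0.11 and -0.78 ± 0.11), and VEGFA, the endothelial growth factor, fell in IMR-90 (-2.16 ± 0.14, with -0.06 ± 0.13 in WI-38). SLC2A1, a glucose transporter, rose in both and more in IMR-90 (1.25 ± 0.11 and 2.10 ± 0.12), though its difference of -0.85 ± 0.16 was not called with 18 libraries in the fit (-0.87) or with WI-38 Dox- Repeat as the control (-0.48). ALDOC, an aldolase, fell in both and more in WI-38 (-1.85 ± 0.17 and -0.53 ± 0.17). Of 20 MAPK feedback and target genes, 13 rose in WI-38 and 11 in IMR-90, and the difference was higher for 7 and lower for 6 (5 to 10 without 1 library). The EGF receptor ligands went apart: EREG rose in WI-38 from 16.8 and 18.9 to 67.4 and 65.8 and fell in IMR-90 from 172 and 126 to 9.09 and 10.7 (difference 5.81 ± 0.24), while HBEGF rose more in IMR-90 (4.03 ± 0.23 against 0.82 ± 0.19). SPRED1, a brake on RAS, rose in IMR-90 (1.13 ± 0.12) with 0.02 ± 0.12 in WI-38. Its difference of -1.11 ± 0.16 was -0.48 and not called with WI-38 IR- or WI-38 Dox- Repeat as the control, where it rose in WI-38 by 0.67 and 0.65.

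Transcripts of the mitochondrial genome rose in WI-38, the strain whose libraries held more of them. Of 13, 12 rose in WI-38 and 1 in IMR-90, and the difference was higher for 10 (4 without PDL15 replicate 1 or PDL52 replicate 1, 5 without WI-38 Proliferating Control replicate 1, and 1 with WI-38 Dox- Repeat). The IMR-90 count ranged over 0 to 9, at 9 without either exhausted WI-38 library, and was 7 by voom. MT-ND1, a subunit of complex I, went from 241 and 289 to 968 and 820.2 CPM in WI-38 and from 16.3 and 15.6 to 22.7 and 22.8 in IMR-90. MT-ND3, another subunit of that complex, had a difference of 1.15 ± 0.19. With WI-38 Dox- Repeat neither was called (0.53 and 0.84). The part of library kind in these differences was not tested.

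**Figure D5:**
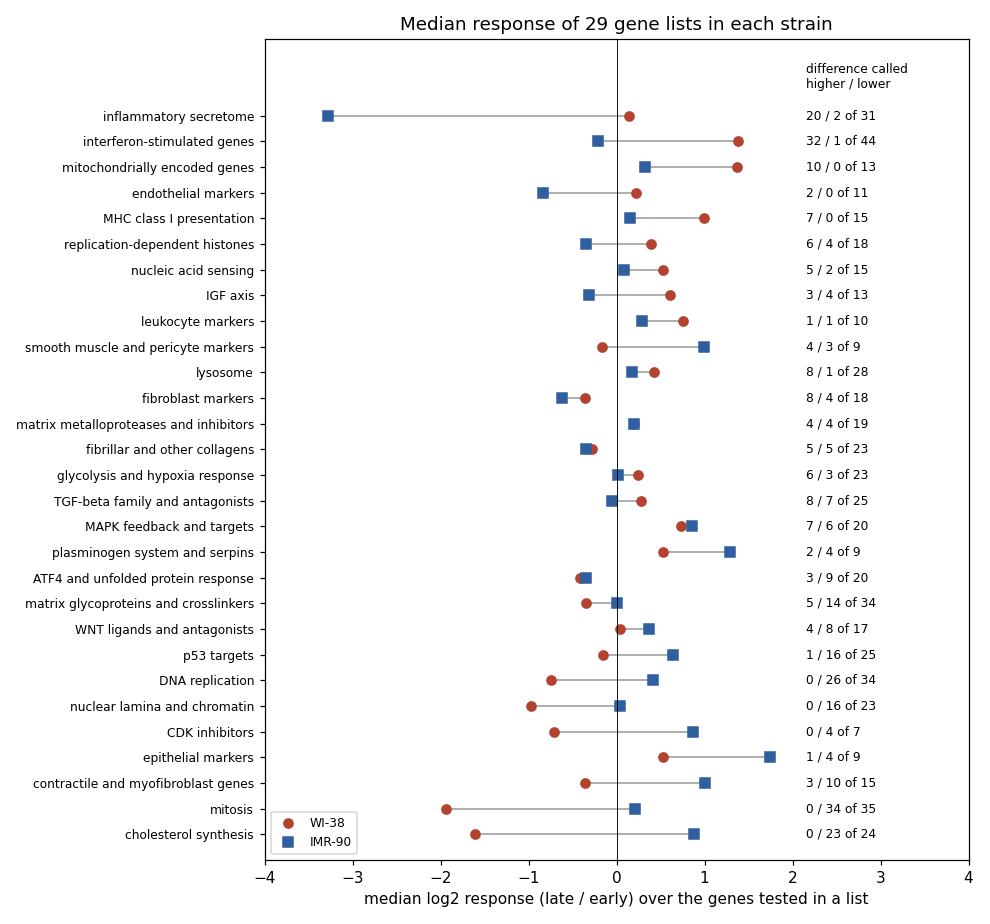
Median log2 response of 29 gene lists in WI-38 (red circles) and IMR-90 (blue squares), ordered by the median difference, with the number of genes whose difference was called higher and lower at the right. Inflammatory genes head the order (20 higher, 2 lower of 31) and cholesterol synthesis ends it (0 higher, 23 lower of 24).

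The most positive differences came from genes that fell in IMR-90. Among genes whose average log2 CPM was 1 or more, the 10 highest were KCNK3 (10.31 ± 1.45), BMP5, CXCL1, CXCL6, PDK4 (9.71 ± 1.21), C3 (9.31 ± 0.30), CXCL3, EFCC1 (8.28 ± 0.34), TMEM176A (8.16 ± 0.33) and TMEM100 (8.04 ± 0.56). Each fell in IMR-90, by 4.62 to 9.44 on the log2 scale, and PDK4, C3, CXCL1, TMEM176A and TMEM100 also rose in WI-38. KCNK3, a background potassium channel, was at 12.1 and 11.7 CPM in PDL15 and 0.12 and 0.0135 in PDL52 and under 0.1 in each WI-38 library. C3, the central complement protein, rose in WI-38 from 1.31 and 1.00 to 8.70 and 6.88 and fell in IMR-90 from 17.2 and 16.4 to 0.179 and 0.175. PDK4, which turns off pyruvate dehydrogenase, was at 148 and 109 and then 4.40 and 6.11 in IMR-90, and at 0.11 and 0.144 and then 0.804 and 7.72 in WI-38, where the exhausted replicates differed widely.

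The genes with the most negative differences rose from low levels in IMR-90, while in WI-38 some fell and others rose. GDF5-AS1 changed more in WI-38 (-4.08 ± 0.21) than in IMR-90 (2.58 ± 0.22). By the fitted value, the 10 lowest were KRTAP2-3, SERPINB7 (-8.51 ± 0.33), NLRP10 (-8.23 ± 0.63), OXTR (-8.01 ± 0.37), PSG5 (-7.69 ± 0.27), TRIM55 (-7.64 ± 0.55), KRTAP2-4, KRTAP2-2, KRT34 (-7.10 ± 0.59) and GDF5-AS1 (-6.66 ± 0.30). The 3 keratin-associated protein genes had no count at IMR-90 PDL15, so their rise is a lower bound against a floor of 3 counts per library: at least 103-fold for KRTAP2-3, 31.5-fold for KRTAP2-4 and 29.7-fold for KRTAP2-2, and they also rose in WI-38, by 2.38 ± 0.18, 2.51 ± 0.28 and 2.53 ± 0.31. At these bounds their log2 differences were -4.31, -2.47 and -2.36 or lower, so their place in this order is not fixed by the data. They share 43.3%, 53.8% and 58.7% of their exon stretches of 31 bases with other genes, so their counts are uncertain, as for PSG5 (42.9%). NLRP10 and KRT34 also rose in WI-38, by 1.01 ± 0.26 and 1.22 ± 0.24. At PDL15 NLRP10 was at 0 and 0.0132 CPM and KRT34 at 0.0123 and 0, so the sizes of their differences are uncertain too. OXTR, the oxytocin receptor, rose from 0.32 and 0.369 to 20.1 and 23.6 CPM in IMR-90 and fell from 94.6 and 83.6 to 27.9 and 15.99 in WI-38. SERPINB7, a serine protease inhibitor, did the same, from 0.0861 and 0.0726 to 15.02 and 11.4 and from 10.3 and 9.75 to 3.92 and 5.14.

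Genes called in opposite directions reached large sizes in both strains. Ordered by the smaller of the 2 responses, those that rose in WI-38 and fell in IMR-90 were led by PDK4 (5.10 ± 0.94 and -4.62 ± 0.78), TMEM176A (3.38 ± 0.22 and -4.78 ± 0.24), TNXB, a tenascin (3.05 ± 0.30 and -4.08 ± 0.32), and TMEM176B (3.02 ± 0.36 and -3.81 ± 0.37). C3, GPX3, a secreted glutathione peroxidase, ADGRL3, an adhesion receptor, and AREG, an EGF receptor ligand, followed. TMEM176A went from 16.01 and 14.1 to 123 and 189.5 CPM in WI-38 and from 39.8 and 40.9 to 1.23 and 1.72 in IMR-90, and it overlaps TMEM176B on the opposite strand. GPX3 went from 16.4 and 14.9 to 121 and 176 and from 10.6 and 10.04 to 1.58 and 1.90. The reverse order was led by NRK, a kinase (-2.78 ± 0.25 and 2.93 ± 0.25), COL11A1, GDF5-AS1 and GDF5, a ligand of the BMP family (-4.14 ± 0.21 and 2.25 ± 0.20). GDF5 and its antisense gene share exon sequence, and their reads cannot be told apart without strand. ITGA7, a laminin receptor, OXTR, CASS4 and TMEM132B followed, with differences of -5.97 ± 0.38, -8.01 ± 0.37, -5.71 ± 0.28 and -5.36 ± 0.31.

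Some genes were called in the same direction in both strains with no called difference. TENM1, a teneurin, rose from 0.169 and 0.0718 to 4.89 and 6.71 CPM in WI-38 and from 0.24 and 0.251 to 12.3 and 15.04 in IMR-90, a difference of -0.28 ± 0.45 (adjusted p = 0.724). PURPL, a p53-induced long non-coding RNA, rose by 3.50 ± 0.16 and 3.93 ± 0.19, and KCNT2, a potassium channel, fell in both (-3.62 ± 0.22 and -3.60 ± 0.23). FRZB, a WNT antagonist, fell from 16.2 and 16.1 to 1.14 and 0.85 and from 5.33 and 6.02 to 0.484 and 0.404, and SETBP1, a nuclear protein, also fell (-3.81 ± 0.24 and -3.44 ± 0.24). DOK5, an adaptor protein (-7.49 ± 0.65 and -6.59 ± 0.62), and GRIA4, a glutamate receptor subunit (-3.65 ± 0.15 and -4.09 ± 0.15), completed those that fell. CST4, a cystatin, MINAR2, and RN7SL471P, a 7SL pseudogene whose reads may belong to 7SL RNA, completed those that rose. CST4 and MINAR2 had no count at PDL15 and were at 0.0419 and 0.108 and at 0.0239 and 0.0404 CPM at PDL52. Their rise in IMR-90 was at least 3.91-fold and 1.68-fold against the floor, beside 10.11 ± 0.61 and 4.21 ± 0.28 on the log2 scale in WI-38. The standard error of the CST4 difference was 26.6 on that scale, so its missed call says little. Of the exon stretches of CST4, 48.7% are shared. RN7SL471P was at 19.4 and 24.2 and then 505 and 383 CPM in IMR-90, but under 0.3 CPM in each WI-38 library. A difference that missed the threshold does not show equal responses. Without WI-38 Replicative Exhaustion replicate 1, the differences of FRZB (-0.60), GRIA4 (0.56) and DOK5 (-6.05) were called, and with WI-38 IR- as the control those of TENM1 (-1.71), GRIA4 (3.45), PURPL (2.31) and SETBP1 (2.24). Counts are also uncertain, with at least 20% of exon stretches shared, for KRT34 (21.8%), GDF5 (38.2%), PLAU (24.1%), PAPPA (20.9%), WNT2B (22.5%), TPM1 (22.9%), FDPS (23.3%), MT-ND1 (28.2%), TCF21 (29.3%), VIM (23.2%) and KRT18 (35.0%). In all, 1349 genes rose and 1082 fell in both with no called difference. In bulk RNA, fewer cells that express a gene and less RNA per cell cannot be told apart.

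Markers of the labelled cell type were present in all libraries. The summed level of 18 fibroblast markers was 10369 to 10761 CPM in proliferating and 7103 to 7239 in exhausted WI-38, and 15407 to 16220 in IMR-90 PDL15 and 6780 to 7224 in PDL52. The difference of these was higher for 8 and lower for 4, and 7 fell and 3 rose in WI-38 (ranges 6 to 8 and 0 to 6) and 10 fell and 2 rose in IMR-90. VIM, vimentin, fell from 4708 and 4395 to 2963 and 2832 in WI-38 and rose from 1082 and 1091 to 1755 and 1808 in IMR-90. TCF21, a transcription factor of lung fibroblasts, fell in IMR-90 (-1.32 ± 0.10) with 0.29 ± 0.10 in WI-38, and TWIST1 fell in both (-1.71 ± 0.14 and -0.60 ± 0.14). Markers of other cells were at far lower sums: endothelium at 74.2 to 263 CPM, leukocytes at 9.90 to 64.0, and epithelium at 16.6 to 79.0. The difference was higher for 2 and lower for 0 of 11 endothelial genes, 1 and 1 of 10 leukocyte genes, and 1 and 4 of 9 epithelial genes. TEK, the angiopoietin receptor, held most of the endothelial sum, while CDH5, VE-cadherin, was at 0 in each WI-38 library and at 2.31 and 2.55 in PDL15 and 1.35 and 1.37 in PDL52. PTPRC, CD45 of leukocytes, was at most 1.80 CPM, and EPCAM of epithelia at most 0.627. The differences of the endothelial gene ERG (at least 1.74), the epithelial gene ESRP2 (1.49 ± 0.42) and the leukocyte genes CD14 (2.50 ± 0.48) and CORO1A (-1.58 ± 0.48) rested on levels under 3 CPM. ERG had no count in proliferating WI-38 and was at least 1.79-fold higher in exhausted cells, and the calls of ERG, ESRP2 and CORO1A were lost without 1 library. Those libraries were all but WI-38 Replicative Exhaustion replicate 2 for ERG, the 6 others for ESRP2 (1.35 to 1.63), and PDL15 replicates 1 and 2, PDL52 replicate 1 and WI-38 Proliferating Control replicate 2 for CORO1A (-1.08 to -1.59). CD14 was not called with WI-38 IR- as the control (2.05). The epithelial sum went in IMR-90 from 16.62 and 16.997 to 79.04 and 65.4, led by KRT18 (from 6.31 and 6.27 to 43.7 and 36.3) and KRT19 (from 0.375 and 0.396 to 7.72 and 5.62). Smooth muscle and pericyte markers summed to 562 and 614 CPM in proliferating and 340 and 435 in exhausted WI-38, and to 388 and 423 in PDL15 and 527 and 594 in PDL52, beside the contractile genes above, and their part in that result was not tested. Their difference was higher for 4 and lower for 3 of 9. Among them ACTG2 (-1.14 ± 0.19 and 1.00 ± 0.19) and LMOD1 (-0.61 ± 0.16 and 1.00 ± 0.16) fell in WI-38 and rose in IMR-90, and RGS5, a pericyte gene, fell more in IMR-90 (-0.69 ± 0.14 and -3.30 ± 0.15).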

How the data were processed

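RNA was read from ribosomal-RNA-depleted libraries made with Ovation cDNA and a TruSeq ChIP kit, per the labels' protocols. The authors deposited raw read counts of each gene as whole numbers. STAR 2.4, bcl2fastq, cutadapt, featureCounts and hg19 are named in the submitters' processing notes, while neither the annotation nor the use of strand is given in the sources used here. Of 57773 genes, 52338 had a symbol. Of 624 listed genes, 28 were not matched.

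The 8 libraries of the 4 groups entered 1 fit with a mean per group (edgeR 4.0.16 in R 4.3.3: filterByExpr, TMM scaling, quasi-likelihood test, Benjamini-Hochberg adjustment over all 31123 genes tested, adjusted p below 0.05). Standard errors are the log2 change divided by the root of F. The fitting code was tested on simulated data. Alternatives were DESeq2 1.42.0 and its size factors, limma 3.58.1 voom with strain weights, no filter on low counts, 18 or 37 libraries, each strain alone, protein-coding genes, a replicate block, other WI-38 controls, and each library left out in turn.

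The comparison, gene lists and the rule for named genes were chosen with earlier results of these data known. The rule took the 3 markers, 12 senescence genes, the 10 highest and 10 lowest differences, up to 8 opposite and up to 5 shared responses per direction (average log2 CPM of at least 1), and of each list the 2 members with the smallest adjusted p per direction. HMGCS1, PMVK, DLGAP5, E2F1, BST2, IFI44L, ISG15, IFNB1, CDH5, PTPRC and EPCAM were named after their values were seen. XIST and Y-linked genes were left out, and some other genes are not reported here. Shared exon stretches were counted over windows of 31 bases in the GENCODE v29 transcripts. Promoters are from RefSeq's GRCh38.p14.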

Additional observations from a re-analysis of the deposited data

Results flagged for a closer look

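For 124 named genes the late-passage response differed between the strains by edgeR's test of the difference itself, with 2 libraries per group. Each value is the log2 response in WI-38 minus that in IMR-90, and no explanation was weighed. Where a group had no count, the value is the bound against a floor of 3 counts per library. The difference was positive for 58: KCNK3 (10.31), BMP5 (10.25), CXCL1 (9.98), CXCL6 (9.87), PDK4 (9.71), C3 (9.31), CXCL3 (9.10), EFCC1 (8.28), TMEM176A (8.16), NKD2 (8.07), TMEM100 (8.04), IL1B (7.23), TNXB (7.12), TMEM176B (6.83), ADGRL3 (6.12), AREG (5.89), PTGS2 (5.87), GPX3 (5.82), EREG (5.81), MMP3 (5.24), CXCL8 (5.14), COL14A1 (5.08), OAS1 (4.55), IFI6 (4.01), TNC (3.76), IFITM1 (3.52), MYOCD (3.51), MYH11 (3.28), TLR3 (3.07), BAMBI (2.96), COL3A1 (2.76), CTSS (2.74), PAPPA (2.64), RGS5 (2.61), MMP1 (2.59), PLK2 (2.52), CD14 (2.50), CTSK (2.42), H4C8 (2.42), DHX58 (2.29), TEK (2.26), VEGFA (2.09), PSMB9 (1.90), ERG (at least 1.74), NDRG1 (1.74), H1-2 (1.72), IL6 (1.64), TCF21 (1.61), ESRP2 (1.49), CEBPB (1.41), WNT2B (1.40), MT-ND1 (1.24), MT-ND3 (1.15), PLAT (1.04), PSMB8 (0.96), PLAU (0.90), IGF1R (0.86), SLC7A11 (0.64). It was negative for 66: SERPINB7 (-8.51), NLRP10 (-8.23), OXTR (-8.01), PSG5 (-7.69), TRIM55 (-7.64), KRT34 (-7.10), GDF5-AS1 (-6.66), GDF5 (-6.39), COL11A1 (-6.18), ITGA7 (-5.97), HMGA2 (-5.93), NOG (-5.85), CASS4 (-5.71), NRK (-5.71), TMEM132B (-5.36), KRT19 (-5.34), SFRP1 (-5.18), KRTAP2-3 (at most -4.31), DKK2 (-3.95), THBS1 (-3.64), MCM10 (-3.62), AURKA (-3.58), H1-5 (-3.34), ANLN (-3.32), HBEGF (-3.21), MKI67 (-3.14), IGF2 (-2.88), FBLN2 (-2.79), FDPS (-2.58), CDKN2A (-2.57), LMNB1 (-2.55), MVD (-2.55), IL32 (-2.49), KRTAP2-4 (at most -2.47), KRTAP2-2 (at most -2.36), TK1 (-2.26), TPM1 (-2.21), H1-3 (-2.14), CHAC1 (-2.14), ACTG2 (-2.14), COL12A1 (-2.11), FAS (-1.90), KRT18 (-1.86), LTBP2 (-1.86), TIMP1 (-1.76), LMOD1 (-1.62), CALD1 (-1.61), HMGB2 (-1.58), CDKN2B (-1.58), CORO1A (-1.58), HSPA5 (-1.54), IGFBP7 (-1.53), LIPA (-1.49), ZMAT3 (-1.49), TRIM22 (-1.44), VIM (-1.37), ALDOC (-1.32), CGAS (-1.22), IL11 (-1.20), RNASEH2A (-1.18), CDKN1A (-1.15), SPRED1 (-1.11), TWIST1 (-1.10), RECK (-1.02), MDM2 (-0.92), SLC2A1 (-0.85). No group held enough libraries to look for single libraries far from the others.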

How the results depend on the processing

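The count of genes with a positive and a negative difference was 2550 and 3835, and with each library left out 1321 to 5020 and 2138 to 6971. An arm left with 1 library was assumed to vary like the other groups. The ranges were 1997 to 7059 higher and 2445 to 6944 lower in WI-38, 2876 to 7772 and 2035 to 5877 in IMR-90, and 202 to 966 and 263 to 1792 for the opposite responses (higher in WI-38 first). With 18 libraries in the fit, 1682 differences were positive, and 250 and 319 responses were opposite. With WI-38 IR- as the control, 3880 were positive, and 750 and 1015 opposite. With WI-38 Dox- Repeat, an alternative chosen after seeing the data, the difference counted 1593 and 2030, WI-38 2615 and 2823, and the opposite responses 244 and 235. With voom, 2668 genes rose in WI-38 and 6865 fell in IMR-90. Fitted alone, WI-38 had 2593 higher and 2601 lower, and IMR-90 6703 lower. With no filter on low counts the median difference over all genes moved to 0.11. The cause of these shifts was not tested.

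With WI-38 IR- as the control, the WI-38 response changed sign for CDKN2B (0.56), CXCL8 (2.80), MDM2 (1.03), TRIM55 (-0.95), PLK2 (0.45), FAS (0.79), ZMAT3 (1.37), IL11 (-1.61), IGF2 (-3.07), COL14A1 (0.95), CTSK (1.62), LIPA (0.28), CEBPB (0.54), VEGFA (0.44), ERG (-2.69), KRT18 (-0.46), RGS5 (0.29), and the difference for MDM2 (0.13), PURPL (2.31), SETBP1 (2.24), ZMAT3 (0.042), ERG (-1.82). With WI-38 Dox- Repeat, PLK2 was 0.0034 in WI-38. Other called differences of named genes kept their sign in each alternative tried. Some genes that the naming rule gave with a called difference lost the call without 1 library, as named above. The rule largely took large differences and small adjusted p of this same test. How often its genes kept the call therefore does not stand for all called genes.

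Replicate numbers are shared by the groups, but same-numbered libraries did not deviate together (correlation -0.148 in WI-38 and -0.00569 in IMR-90). With 2 libraries per group, this cannot show whether same-numbered libraries shared a culture or a preparation. With a replicate block, 1979 differences were positive and 3093 negative. Depth, at 139001848 counts or more per library, limits genes with few counts, such as CST4, MINAR2 and ERG.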
